A study of Homo sapiens with 54 samples.

Results

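The comparison described here is that of 5-fluorouracil-resistant with sensitive DLD-1 cells while both were under the drug. It rests on 6 of the 54 RNA-seq libraries of the series, 3 of resistant and 3 of sensitive cells, chosen by their labels alone. The question is which genes differed between resistant and sensitive cells under 5-FU, and whether each of them differed because the sensitive cells responded to the drug or because the lines were already apart without it. The other 12 DLD-1 libraries, uracil-treated and irradiated, served to place each gene and to set the spread between replicates.

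The series covers 3 colorectal cancer lines, each as sensitive and as resistant cells, under 3 treatments and in triplicate. DLD-1 is a colorectal adenocarcinoma line with mutant p53. Sensitive and resistant DLD-1 cells were given 10 µM 5-FU for 24 h, or 10 µM uracil for 24 h as the control, or 5-FU followed by a change of medium and irradiation at the dose chosen for the line. The resistant cells were raised by growing DLD-1 cells for months in rising concentrations of 5-FU and were kept in a concentration higher than the test dose. They are 1 selected population, so the gap between resistant and sensitive cells is that between this population and its parent, and p-values cover the spread between the triplicates only. Whether the resistant cells were taken out of the drug before the uracil treatment is not given in the sources used here.

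5-FU is a pyrimidine analogue that cells convert into nucleotides. One of these blocks thymidylate synthase and so starves the cell of thymidine, while others enter RNA and DNA, and the incorporation into RNA disturbs the maturation of ribosomal RNA. Cells under stress from amino acid shortage, misfolded protein or haem deficiency make the transcription factor ATF4, which switches on genes for amino acid synthesis, transport and tRNA charging.

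The 6 libraries held from 39987113 to 86673615 estimated counts, and 21814 genes passed the filter on low counts. All 20 genes that mark DLD-1 against the other lines reached 1 TPM (a transcript level corrected for length and depth) in the sensitive libraries and 19 of 20 in the resistant ones, and of the 64 markers of HCT-116 0 were in the resistant 5-FU libraries. Among general epithelial markers 8 of 10 were at 1 TPM or more in both groups, with means of 0.131 and 0.0673 TPM for CEACAM5, and the 15 markers of fibroblasts, blood, endothelium, glia and muscle summed to 4.95 to 5.53 TPM in sensitive and 3.83 to 4.43 TPM in resistant cells. The resistant uracil library of replicate 1 stood apart from the other 2 of its group (chi-square per degree of freedom 28.2 and 24.2, against 3.58 between those 2). The counts by class and some of the genes that it moved are therefore given with and without it. Of the 15 markers of other cell types 7 were tested. At the thresholds given below, 1 was lower and 1 higher in resistant cells under 5-FU, against 5.23% and 3.88% of all genes. They were VWF of endothelium (-1.01) and PDGFRB of fibroblasts (2.64), in log2 from the fit without that library.

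Under 5-FU, 1140 genes stood lower in resistant than in sensitive DLD-1 cells and 847 stood higher, at an adjusted p of 0.01 or less and at least a 2-fold change by edgeR's quasi-likelihood test. Of the 21814 genes tested these are 5.23% and 3.88%, together 9.11%. Scaling by library size alone turned the split to 1432 lower and 668 higher and moved the median of all genes from -0.01 to -0.12 (log2). Of the genes called, 716 lower and 558 higher genes averaged 1 TPM or more in the sensitive or the resistant libraries, and 325 of the lower and 100 of the higher carry names of clones rather than gene symbols.

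The genes fell into classes by what the other DLD-1 libraries showed. A gene was counted as already apart where it was also called, in the same direction, between resistant and sensitive cells under uracil, and as apart by the drug where it was not called in that direction under uracil and the gap moved toward the difference with 5-FU (interaction, adjusted p of 0.01 or less). Already apart with no called change of the gap were 665 genes, or 33.5% (292 lower, 373 higher), and a further 110 genes were already apart but with a changed gap. Apart by the drug were 520 genes, or 26.2%, and 692 genes met neither rule. In the interaction itself 4978 of all genes, or 22.8%, passed the adjusted p, 9.12% toward lower and 13.7% toward higher levels in resistant cells, so a changed gap was common also among genes not called here.

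Of the 520 genes apart by the drug, 486 (93.5%) passed the adjusted p for a response toward the difference in the sensitive cells and not in the resistant cells. There were 288 such genes lower in resistant cells and 198 higher. For the 288, the median change of the sensitive cells under 5-FU was 1.06 (log2) and that of the resistant cells -0.20; for the 198, it was -1.10 and -0.06. A further 6 genes responded in both, 2 in the resistant cells alone and 26 in neither by the same threshold. These classes use the same sensitive 5-FU libraries for the gap and for the response, so their agreement is in part built in. Of all 21814 genes, 7575 passed the adjusted p for a response in sensitive cells, and 84 (0.385%) in resistant cells. Few genes could therefore enter a class with a resistant response, and the 93.5% is to be read against these counts. Without the resistant uracil library that stood apart, the counts were 617 already apart with no called change of the gap, 129 with a changed gap, 557 apart by the drug and 755 in neither.

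**Figure D1:**
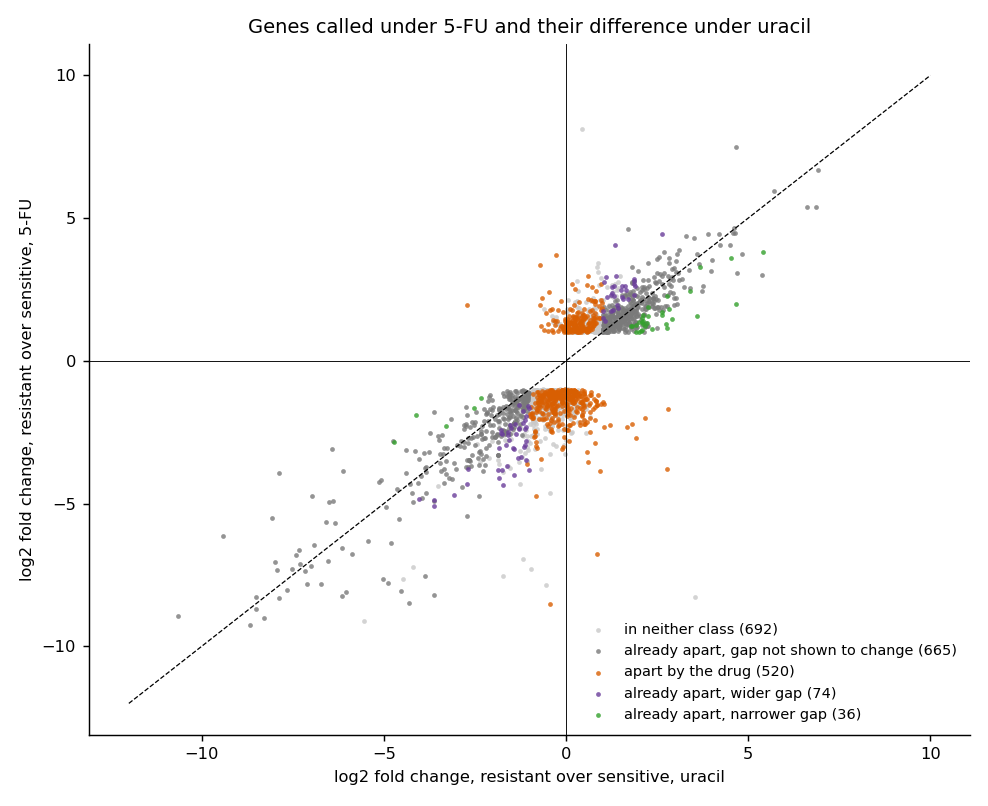
Each point is 1 of the 1987 genes called between resistant and sensitive DLD-1 cells under 5-FU, with its log2 fold change under uracil on the horizontal and under 5-FU on the vertical axis, coloured by class; the dashed line marks equal differences and the empty band around 0 is the 2-fold threshold. The 665 genes already apart with no called change of the gap lie along the line, and the 520 apart by the drug lie above it where they are higher and below it where they are lower, the sensitive-response classes with median differences under uracil of 0.27 and -0.11.

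Each gene's difference under 5-FU is the sum of its difference under uracil, the response of the sensitive cells with its sign turned, and the response of the resistant cells. Over the 1140 lower genes the medians of the 3 parts, in the direction of the difference, were 0.69, 0.71 and 0.17 (log2). Over the 847 higher genes they were 1.09, 0.58 and -0.13, so the difference under uracil was the largest part there. The responses were unequal at the level of all genes too: 878 genes (4.02%) were called between 5-FU and uracil in sensitive cells, 298 lower and 580 higher, and 3 (0.0138%) in resistant cells. The 3 are CITED4 and CDSN, which fell (0.00917%), and the clone-named AC087721.2, which rose (0.00458%). CDSN was near the floor, with means of 0.147 TPM in resistant uracil and 0 in resistant 5-FU libraries, and 0.153 TPM in the irradiated resistant ones. At an unadjusted p under 0.05 there were 4041 genes in resistant cells, and DESeq2 called 0, with 546 genes at its adjusted p alone. The count in resistant cells rested on single libraries: at the adjusted p alone it was 84 (0.385%), and from 10 to 363 with 1 library left out, the 363 without the resistant uracil library that stood apart.

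**Figure D2:**
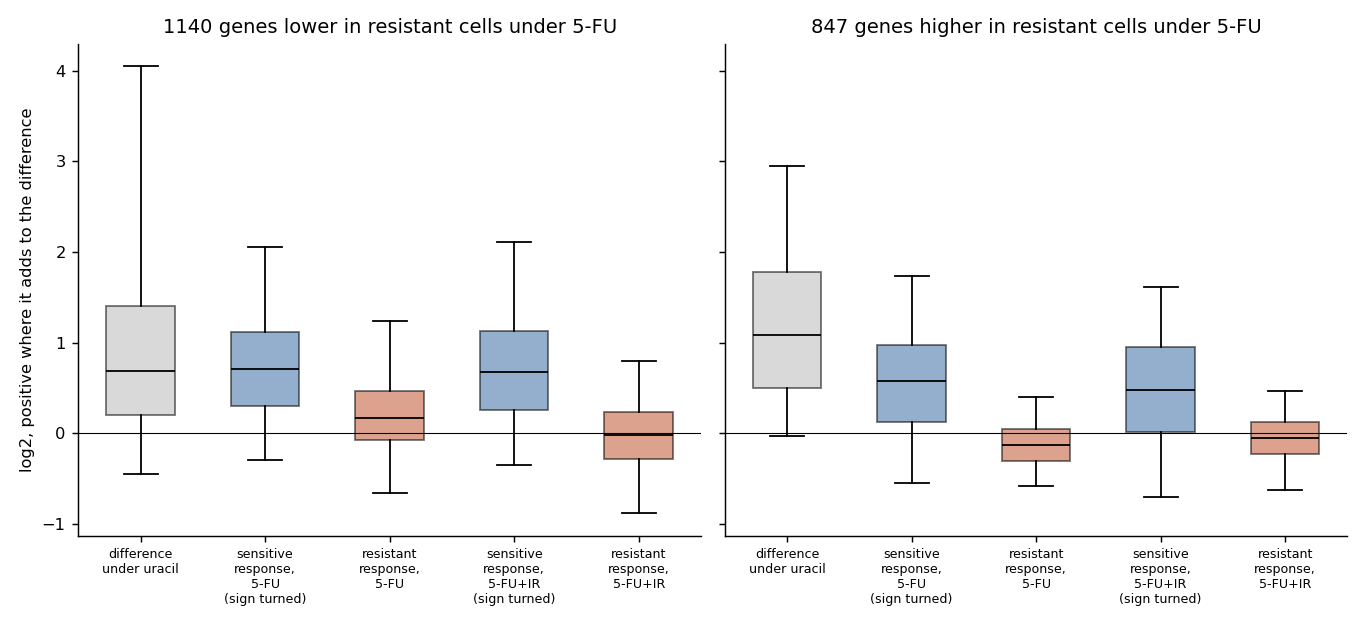
Box plots over the 1140 lower (left) and 847 higher (right) genes of the difference under uracil and of the responses of sensitive (sign turned) and resistant cells to 5-FU and to 5-FU with irradiation (IR), in log2 and positive where a part adds to the difference under 5-FU; lines are medians, boxes the middle 50% of genes and whiskers the 5th to 95th percentiles. For lower genes the uracil difference (0.69) and the sensitive response (0.71) have medians alike in size, and for higher genes the uracil difference (1.09) is above the sensitive response (0.58).

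Among the genes higher in resistant cells where the level fell in sensitive cells, 3 of the 6 named for the largest interactions belong to the ATF4 list of stress genes. DDIT4 (chr10:72273919-72276036), an inhibitor of the growth kinase complex mTORC1, was at 6.60, 6.08 and 7.06 TPM in the sensitive 5-FU libraries and at 76.0, 86.7 and 71.8 TPM in the resistant ones. Under uracil it was at 94.4, 94.5 and 113 TPM in sensitive and at 135, 53.2 and 63.0 TPM in resistant cells. The sensitive 5-FU libraries were thus the only low ones among these 12. The resistant 5-FU values lay inside the range of the resistant uracil values through replicate 1 (135 TPM) alone, and above 53.2 and 63.0 TPM. The difference under 5-FU was 3.72 ± 0.24 (log2, SE; adjusted p = 6.22e-11), the sensitive cells changed by -4.06 and the resistant cells by -0.06, and the interaction was 4.00 ± 0.31 (adjusted p = 7.74e-09). Under uracil the difference was -0.28 (adjusted p = 0.306). Without the resistant uracil library of replicate 1 it was -0.78 (adjusted p = 1.57e-06), the change in resistant cells 0.44 (adjusted p = 0.0149) and the interaction 4.50.

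ASNS (chr7:97851677-97872542), asparagine synthetase, was at 34.7, 36.2 and 37.7 TPM in the sensitive and at 134, 137 and 127 TPM in the resistant 5-FU libraries. Under uracil the sensitive libraries stood at 171, 164 and 172 TPM and the resistant ones at 205, 135 and 135 TPM. The lines were far apart under the drug, with a difference of 2.10 ± 0.09 (adjusted p = 6.09e-14) against -0.14 under uracil, and with -2.45 for the sensitive and -0.20 for the resistant response. Under uracil the ranges overlapped through the resistant library of replicate 1 alone: without it the resistant values lay below the sensitive ones, the uracil difference was -0.30 (adjusted p = 0.000107) and the resistant response -0.05. CHAC1 (chr15:40952962-40956512), which degrades glutathione, was at 5.13, 4.40 and 5.08 TPM in sensitive and 14.2, 15.7 and 15.6 TPM in resistant cells under 5-FU. It had been at 22.9, 21.7 and 20.9 TPM and at 19.6, 14.3 and 14.9 TPM under uracil, so the resistant level was the lower of the pair before the drug and the higher under it (difference 1.78 ± 0.10, adjusted p = 7.36e-12).

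The promoters of 3 of these stress genes are shown because they hold the letters TGATGNAA on 1 strand or the other, the core of the amino acid response element to which ATF4 and its partners of the C/EBP family bind. Each run is the 250 bases before the RefSeq start on GRCh38.p14, read 5′ to 3′ on the strand of the gene, with the match in capitals. ASNS (chr7:97872409-97872658, minus strand) has it 68 bases before the start, CHAC1 (chr15:40953221-40953470, plus strand) 209 bases before and HERPUD1 (chr16:56931892-56932141, plus strand) 176 bases before.
ASNS: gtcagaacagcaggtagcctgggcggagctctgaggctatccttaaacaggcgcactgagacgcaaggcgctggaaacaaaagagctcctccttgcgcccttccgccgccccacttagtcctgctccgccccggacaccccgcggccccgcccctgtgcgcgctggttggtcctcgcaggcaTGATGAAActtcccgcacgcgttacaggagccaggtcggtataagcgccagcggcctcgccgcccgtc
CHAC1: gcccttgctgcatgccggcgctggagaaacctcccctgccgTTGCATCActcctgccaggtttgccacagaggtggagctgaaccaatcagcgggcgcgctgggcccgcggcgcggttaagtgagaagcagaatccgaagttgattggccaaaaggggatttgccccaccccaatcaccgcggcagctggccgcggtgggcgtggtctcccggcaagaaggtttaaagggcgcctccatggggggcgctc
HERPUD1: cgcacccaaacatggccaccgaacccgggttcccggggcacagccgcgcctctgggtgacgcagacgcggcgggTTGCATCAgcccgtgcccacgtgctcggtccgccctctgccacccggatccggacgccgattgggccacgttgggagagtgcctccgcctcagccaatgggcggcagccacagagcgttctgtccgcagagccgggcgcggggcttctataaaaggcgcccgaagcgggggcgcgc
In the gene annotation used for the other coordinates, GENCODE 44, the outermost starts of ASNS and CHAC1 lie further upstream than these. In windows from 250 bases before to 50 after a start, the letters stood in 11 of the 29 tested members of the ATF4 list that have a window (37.9%), in 369 of the 12563 tested genes (2.94%) and in 1270 of all 35116 windows (3.62%). Among genes apart by a response of the sensitive cells alone, 142 higher and 164 lower ones have a window. The letters stood in 6 of the higher (4.23%) and 12 of the lower (7.32%). Of the list's members called higher in resistant cells under 5-FU, 7 have a window and 4 of these hold the letters, those of DDIT4, PCK2 and XBP1 not among them. A gene with several windows has more chances of a match, and a match describes letters and not a bound site.

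The list of ATF4-linked amino acid and stress genes moved together in the sensitive cells. Of its 34 tested members, 9 were higher and 1 lower in resistant than in sensitive cells under 5-FU, against 3.88% and 5.23% of all genes, and the median was 0.80 (log2) against -0.01 for all genes. Under uracil, where 3.69% of all genes were higher and 2.01% lower, 1 was higher and 2 lower (median -0.20), or 0 and 3 without the resistant uracil library that stood apart (median -0.26). In sensitive cells 19 fell with 5-FU (1.37% of all genes) and 0 rose (2.66%; median -1.06), in resistant cells 0 were called either way (median -0.09), and the gap moved toward higher levels in resistant cells for 29 of the 34 at the adjusted p, where 13.7% of all genes did so. Scaling by library size alone left 7 higher, since GARS and HERPUD1 lay near the 2-fold line.

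Beside the genes above, the higher members included PCK2, the mitochondrial form of phosphoenolpyruvate carboxykinase, at 12.6, 12.8 and 11.7 TPM in sensitive against 34.7, 38.3 and 35.9 TPM in resistant cells (1.71). SLC7A11, the cystine and glutamate exchanger, was at 5.15, 4.98 and 4.50 against 12.2, 11.8 and 12.4 TPM (1.47). XBP1, a transcription factor of the unfolded protein response, was at 42.7, 42.2 and 42.0 against 96.3, 93.3 and 93.8 TPM (1.28). These groups did not overlap in any of the 3 genes. HERPUD1, which acts in the degradation of proteins from the endoplasmic reticulum, was higher by 1.09 and GARS, glycyl-tRNA synthetase, by 1.02. ALDH1L2, a mitochondrial enzyme of folate metabolism, was called from its counts but its TPM values overlapped between the groups, with a lowest resistant value of 0.291 and a highest sensitive value of 0.376.

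The 1 lower member was SLC3A2, the heavy chain of several amino acid transporters, at 512, 522 and 503 TPM in sensitive and 248, 266 and 249 TPM in resistant cells (-1.01); it went against the list, with a change of 0.51 in the sensitive cells. ATF4 itself stood at 246, 246 and 244 TPM in sensitive cells under 5-FU, 448, 429 and 438 TPM in the same cells under uracil, and 414, 421 and 404 TPM in resistant cells under 5-FU. That was a difference of 0.84 (log2), short of the 2-fold line, and its mRNA level does not give the level of the protein. GPT2 and NUPR1 also fell in sensitive cells (-1.04 and -1.49) but were already low in resistant cells under uracil (-0.93 and -2.10), so that under 5-FU they differed by -0.01 and -0.12.

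RPL22L1 (chr3:170864875-170870208), a paralogue of the ribosomal protein RPL22, fell in the sensitive cells with little spread between libraries. The sensitive 5-FU libraries were at 124, 125 and 135 TPM, and the other 9 libraries of the uracil and 5-FU groups at 694, 650 and 651 TPM (sensitive uracil), 723, 756 and 786 TPM (resistant uracil) and 783, 821 and 790 TPM (resistant 5-FU). The difference under 5-FU was 2.69 ± 0.05 (adjusted p = 1.18e-19), and the interaction 2.53 ± 0.07 (adjusted p = 5.36e-16). It was the 1 gene called higher (3.88% of all genes) of 42 in the list of ribosome biogenesis, which holds it beside RPL22, with a median of 0.11. PIR, an iron-binding nuclear protein whose gene is a target of NRF2, was at 1.76, 2.22 and 2.60 TPM in sensitive against 6.52, 7.19 and 6.84 TPM in resistant cells under 5-FU (1.80 ± 0.14, adjusted p = 5.11e-10), after a change of -2.24 in the sensitive and -0.05 in the resistant cells. FGF20, a growth factor of the FGF family, was low throughout, at 0.417, 0.286 and 0.767 TPM against 1.51, 1.54 and 1.66 TPM (2.40 ± 0.26, adjusted p = 1.12e-07).

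**Figure D3:**
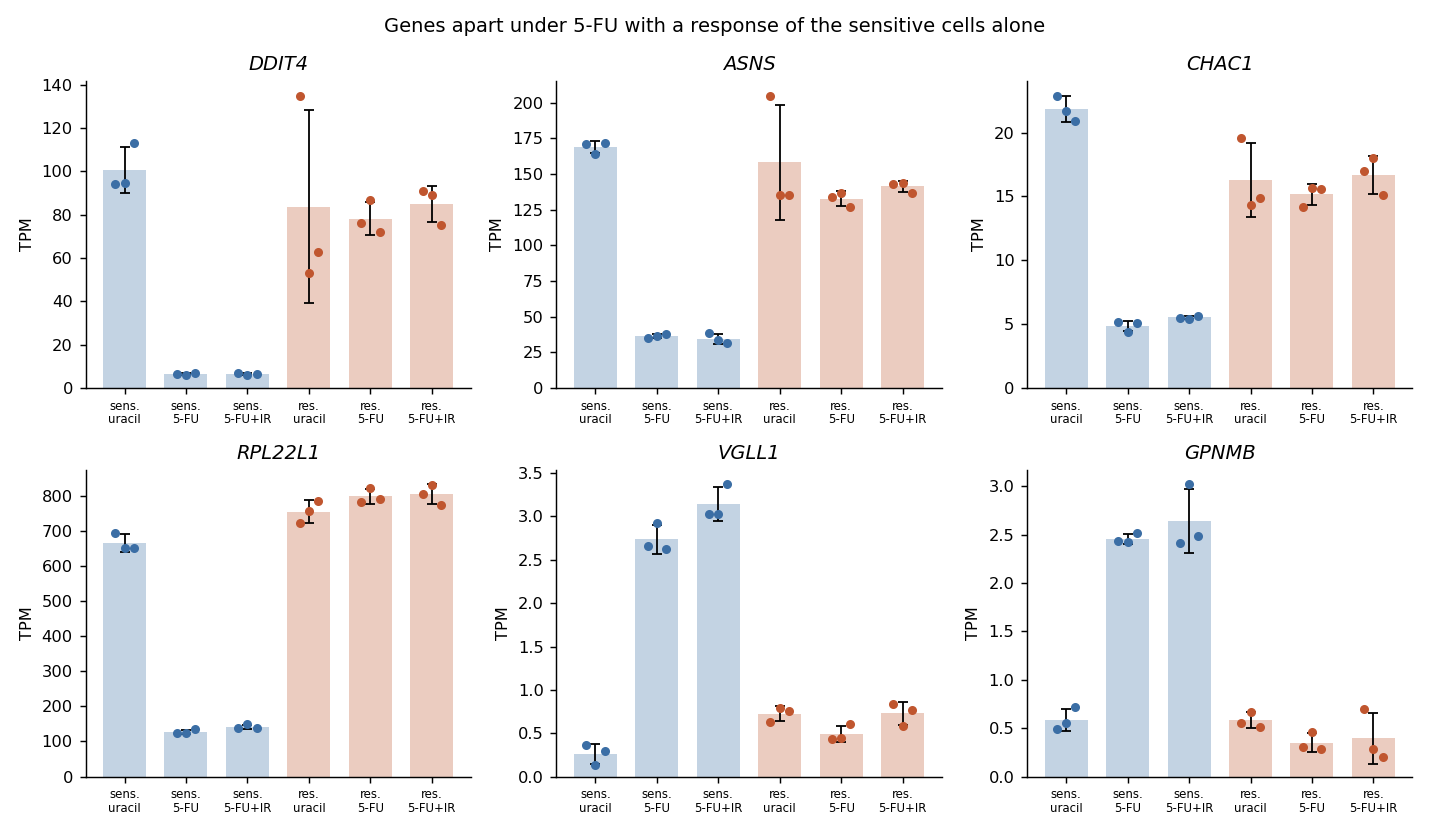
TPM of DDIT4, ASNS, CHAC1, RPL22L1, VGLL1 and GPNMB in the 18 DLD-1 libraries, sensitive cells in blue and resistant cells in orange, under uracil, 5-FU and 5-FU with irradiation (IR); points are libraries, bars means and error bars the SD (n = 3). In DDIT4, ASNS, CHAC1 and RPL22L1 the sensitive libraries with 5-FU are the low ones, and in VGLL1 and GPNMB the high ones, whereas the resistant groups stay near their uracil level.

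The named genes that were lower in resistant cells where the level rose in sensitive cells were at a few TPM. GPNMB (chr7:23235967-23275108), a transmembrane glycoprotein, was at 2.43, 2.42 and 2.52 TPM in sensitive and 0.308, 0.463 and 0.282 TPM in resistant cells under 5-FU. Under uracil the lines were alike, at 0.487, 0.551 and 0.715 TPM and 0.556, 0.672 and 0.515 TPM. The difference under the drug was -3.08 ± 0.25 (adjusted p = 1.47e-09) and the sensitive response 2.58. VGLL1 (chrX:136532215-136556807), a cofactor of the TEAD transcription factors, was at 2.66, 2.93 and 2.62 TPM in sensitive and 0.438, 0.447 and 0.603 TPM in resistant cells under 5-FU. Under uracil the order was the other way round, 0.36, 0.136 and 0.290 TPM against 0.632, 0.788 and 0.759 TPM, so the gap changed sign: 1.92 under uracil (adjusted p = 9.77e-05) and -2.70 ± 0.28 under 5-FU (adjusted p = 5.09e-08).

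KRT13, a keratin of stratified epithelium, was at 1.07, 1.62 and 0.930 TPM in sensitive and 0.474, 0.0909 and 0.193 TPM in resistant cells (-2.30 ± 0.31, adjusted p = 2.3e-06). UPK2, a uroplakin of the urothelial surface, was at 1.17, 1.48 and 1.77 TPM in sensitive cells and at 3 counts or fewer in each resistant library, a ratio of 14.4 (exact interval 7.13 to 33.8, counting error only). In resistant cells UPK2 was at 0.552, 0.467 and 0.179 TPM under uracil, a ratio of 4.29 to 5-FU (1.96 to 10.7; adjusted p = 0.0239), and at 0.650, 0.737 and 0.615 TPM in the irradiated libraries. Under 5-FU, in both genes the groups did not overlap. The long non-coding RNA LINC02742 stood at 1.76, 1.30 and 1.39 TPM against 0.146, 0.419 and 0.195 TPM, and CASQ1, a calcium-binding protein of muscle, at 1.04, 1.36 and 1.15 TPM against 0.119, 0.0798 and 0.121 TPM.

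Of the 17 tested members of the list of keratins and other squamous genes, 8 stood lower under 5-FU in resistant cells and 0 stood higher, against 5.23% and 3.88% of all genes, with a median of -0.92. At the adjusted p alone 10 were lower and 4 higher. Under uracil 0 were lower (2.01% of all genes) and 2 higher (3.69%), with a median of 0.34. In sensitive cells 6 rose with 5-FU (2.66%) and 0 fell (1.37%), and in resistant cells 0 were called. Beside KRT13 the lower members included TGM1, which crosslinks proteins of the cornified envelope, at 14.9, 15.5 and 16.4 TPM against 3.25, 2.95 and 2.80 TPM (-2.05). KRT7, a keratin of ducts and glands, was at 21.8, 20.5 and 23.1 against 8.87, 8.53 and 6.54 TPM (-1.42). KRT4, a keratin of the oesophagus, was at 1.35, 1.35 and 1.53 TPM in sensitive cells and near 0 in resistant cells, a ratio of 251 (44.7 to 9930). The others were KRT5, SPRR3 with a ratio of 31.4 (5.38 to 1266), and KRT81 with KRT86, whose near-identical sequences make the division of reads between them uncertain. The keratins of simple epithelium went the other way but short of 2-fold, KRT8 by 0.35, KRT18 by 0.48 and KRT19 by 0.36.

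**Figure D4:**
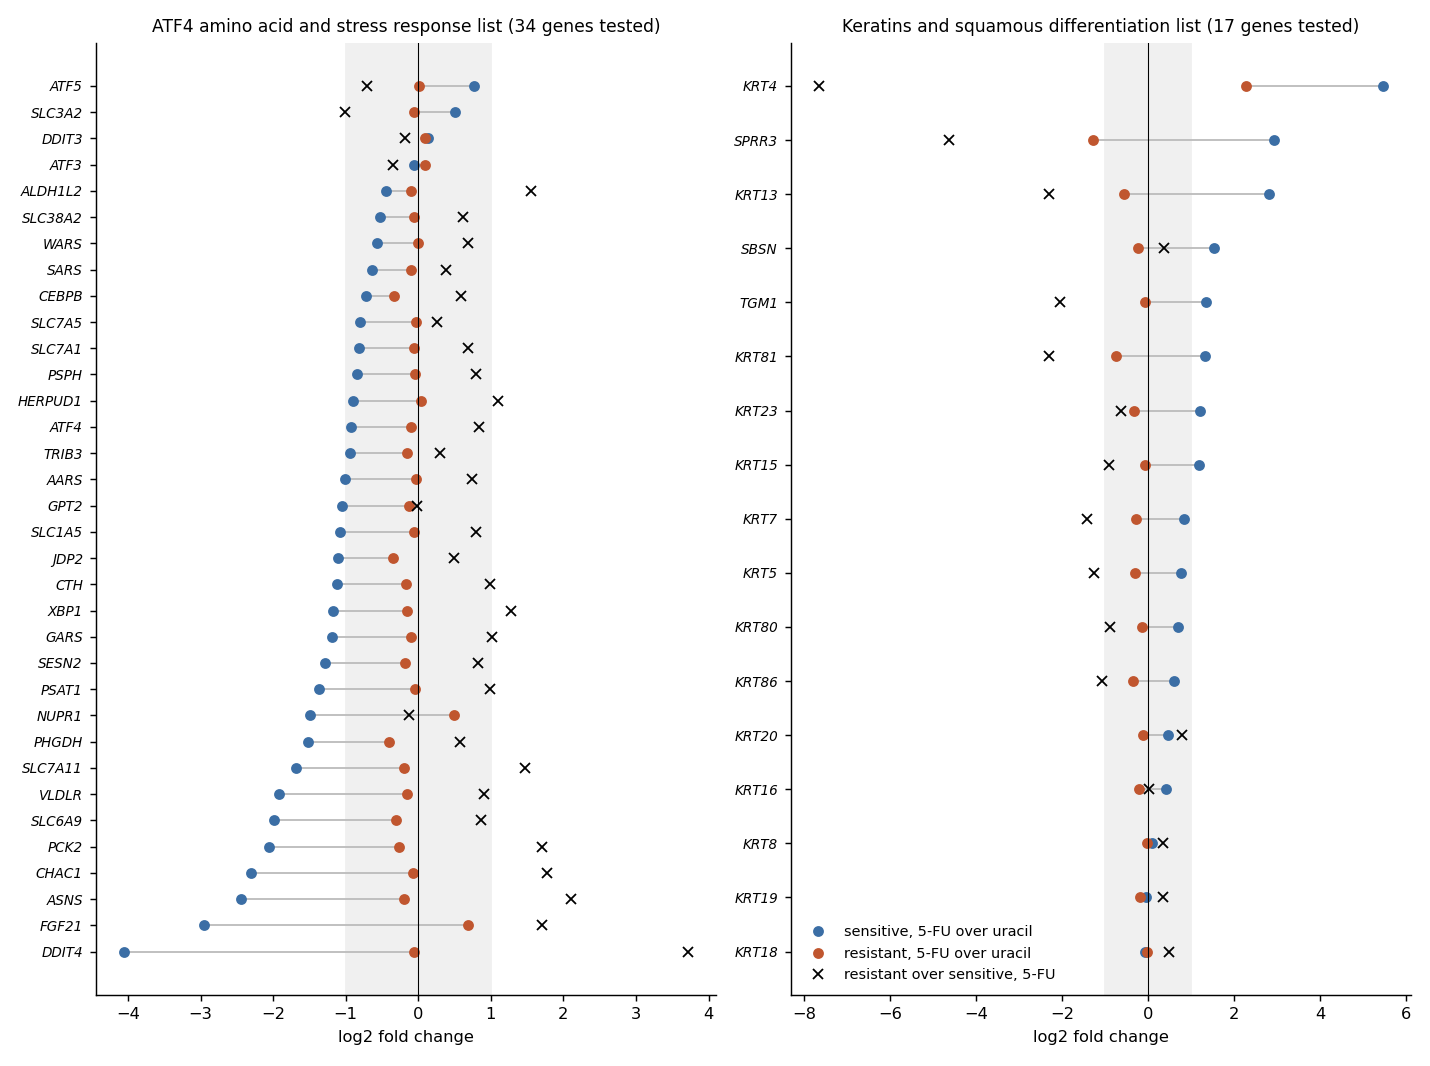
Log2 fold changes of the 34 tested genes of the ATF4 list (left) and the 17 of the keratin and squamous list (right): sensitive cells, 5-FU over uracil (blue), resistant cells, 5-FU over uracil (orange), and resistant over sensitive cells under 5-FU (crosses), with the range under 2-fold in grey. Blue points lie to the left in the ATF4 list (median -1.06), orange ones near 0 (median -0.09); the values of KRT4 and SPRR3 are fitted from groups at 3 counts or fewer a library.

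A few genes changed in the resistant cells too. TXNIP, which binds thioredoxin and limits glucose uptake, rose in sensitive cells from 15.4, 14.2 and 16.4 TPM to 29.3, 27.7 and 31.0 TPM and fell in resistant cells from 9.91, 10.6 and 9.77 TPM to 6.65, 7.08 and 6.82 TPM. The changes were 0.90 and -0.56 (adjusted p = 0.00251 for the latter), and the difference under 5-FU was -2.00 ± 0.08. MUC13, a mucin of the intestinal cell surface, moved apart in the same manner, from 21.4, 20.8 and 21.7 to 43.6, 45.0 and 43.7 TPM in sensitive and from 22.0, 19.9 and 21.4 to 15.6, 16.2 and 16.1 TPM in resistant cells. The lines overlapped in MUC13 under uracil and differed by -1.34 ± 0.05 under the drug. CITED4, a coactivator partner of CBP and p300, fell in resistant cells from 0.923, 0.962 and 0.849 to 0.443, 0.468 and 0.376 TPM (-1.07, adjusted p = 0.00568) and rose in sensitive cells by 0.67. RAP1GAP2, which switches off the GTPase Rap1, is 1 of the 2 genes of the class in which only the resistant cells passed the threshold: they fell from 4.34, 4.05 and 4.22 to 3.15, 3.23 and 3.50 TPM (-0.38, adjusted p = 0.00025), while the sensitive change was 0.01. In irradiated resistant cells the change from uracil was -0.61 in TXNIP, -0.89 in CITED4 and -0.20 in RAP1GAP2, each past the adjusted p. The fall of MUC13 was not seen there (0.18, adjusted p = 0.0373 by the same edgeR test).

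Among the genes already apart, the largest differences were between expression and near silence. CALCA, the gene of calcitonin and its related peptide, was at 2.46, 1.97 and 1.62 TPM in sensitive cells under 5-FU and at 0 in every resistant library, at least 15.1-fold lower under 5-FU and at least 11.8-fold lower under uracil. KLHL4, a protein of the kelch family, was at 7.86, 7.43 and 8.54 TPM in sensitive and at 0.0195, 0.0117 and 0 TPM in resistant cells, a ratio of 512 (200 to 1879). NPTX2, a neuronal pentraxin, had a ratio of 635 (114 to 25105) and ADGRL2, an adhesion receptor, of 236 (101 to 727). NINJ2 was at 1.01, 1.30 and 1.88 TPM in sensitive cells and at 0 in the resistant 5-FU libraries, at least 7.78-fold lower.

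NETO2 (chr16:47077703-47143945), an auxiliary subunit of kainate receptors, was the most strongly expressed of them, at 22.8, 23.9 and 21.8 TPM in sensitive cells under 5-FU and 24.4, 22.0 and 21.8 TPM under uracil. In resistant cells it was at 0.0889, 0.128 and 0.221 TPM and at 0.195, 0.0822 and 0.256 TPM. The difference under 5-FU was -7.83 ± 0.17 (adjusted p = 1.38e-18), and in both lines the uracil and 5-FU libraries overlapped. MSANTD4 was lower by a similar margin, at 6.0, 6.84 and 5.99 against 0, 0.183 and 0.0183 TPM (-7.34 ± 0.27).

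In the other direction, PTGS2 (chr1:186671791-186680922), the inducible cyclooxygenase of prostaglandin synthesis, was at 0.911, 0.933 and 1.05 TPM in sensitive and 89.7, 90.2 and 87.3 TPM in resistant cells under 5-FU. Under uracil it was at 0.825, 0.955 and 0.818 against 113, 96.1 and 97.3 TPM, so the gap was present without the drug (6.91) and with it (6.69 ± 0.08, adjusted p = 8.07e-23). CALB1, a calcium-binding protein, was at 1.84, 2.77 and 1.47 against 14.0, 14.2 and 13.5 TPM (3.75; 4.83 under uracil). Without the resistant uracil library that stood apart, the gap of CALB1 under uracil was 4.52 and its narrowing with 5-FU passed the adjusted p (0.00897). TMEM63C was at 0.477, 0.234 and 0.294 against 3.11, 2.09 and 2.98 TPM (4.44), and the zinc finger gene ZNF595, which has close paralogues that can take its reads, at 0.096, 0.0265 and 0.0582 against 1.60, 1.69 and 2.04 TPM (4.07).

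In a few genes the gap was present under uracil and changed with the drug. PRF1, the pore-forming protein of cytotoxic lymphocytes, was at 0.683, 0.574 and 0.529 TPM in sensitive uracil libraries and 0.190, 0.190 and 0.197 TPM in sensitive 5-FU libraries, while the resistant cells stood at 4.84, 2.96 and 3.35 and at 3.45, 3.75 and 4.26 TPM. The gap widened from 2.63 to 4.46. RPE65, the retinoid isomerase of the eye, narrowed: the sensitive cells rose from 0.0915, 0.0468 and 0.102 to 0.220, 0.220 and 0.268 TPM beside 3.32, 3.08 and 2.83 TPM in resistant cells under 5-FU, and the gap went from 5.40 to 3.82. GZMB, a protease of cytotoxic lymphocytes, was at 3 counts or fewer in each sensitive 5-FU library and at 0.946, 1.35 and 0.723 TPM in the resistant ones, a ratio of 14.0 (6.43 to 36.3). The leukocyte marker PTPRC was at 0, 0 and 0.0326 TPM and CD3E at 0, 0 and 0.0259 TPM in those resistant libraries.

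**Figure D5:**
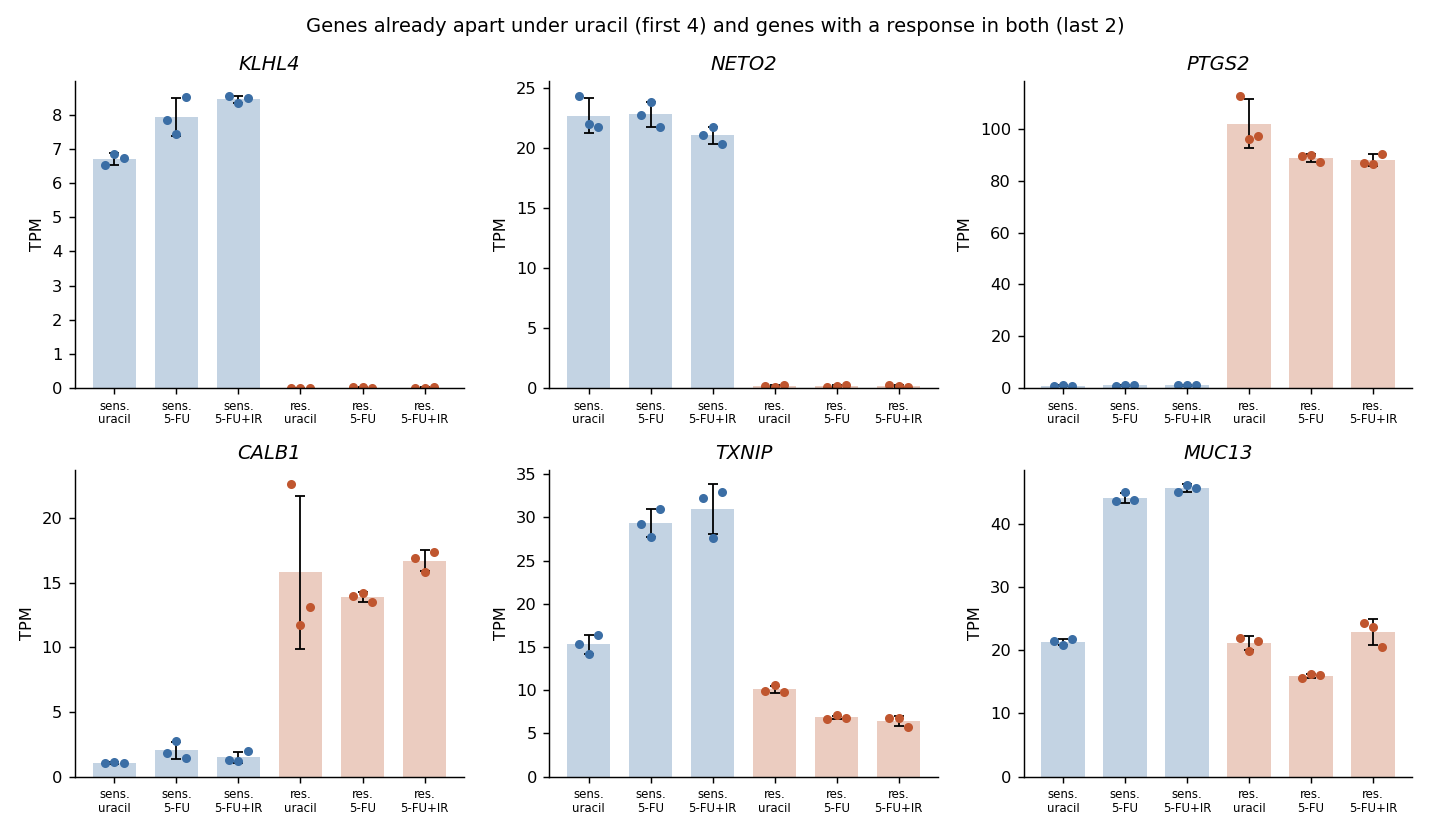
TPM of KLHL4, NETO2, PTGS2, CALB1, TXNIP and MUC13 in the 18 DLD-1 libraries, sensitive cells in blue and resistant cells in orange, under uracil, 5-FU and 5-FU with irradiation (IR); points are libraries, bars means and error bars the SD (n = 3). The first 4 genes are apart under every treatment, whereas MUC13 overlaps under uracil and TXNIP and MUC13 move apart with 5-FU.

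The enzymes and transporters that handle 5-FU, and its target, gave 2 calls. Of 23 tested genes of 5-FU metabolism and transport 1 was lower (4.35%) and 0 higher (median 0.09), against 5.23% and 3.88% of all genes. The 1 gene was UPP1, uridine phosphorylase, which converts 5-FU to its nucleoside: it was at 43.8, 47.4 and 42.8 TPM in sensitive and 13.7, 12.1 and 12.6 TPM in resistant cells (-1.63 ± 0.06, adjusted p = 3.21e-15). Under uracil it was at 24.3, 25.2 and 25.1 against 15, 13.8 and 14.0 TPM, and the sensitive cells rose by 0.70. TYMS, thymidylate synthase, was at 278, 284 and 293 TPM in sensitive and 256, 270 and 256 TPM in resistant cells, a difference of -0.03 that did not pass the test (adjusted p = 0.687). Of the 24 genes of thymidylate and folate metabolism 1 was called higher (4.17%, against 3.88% of all genes) and 0 lower. It was MTHFD2, a mitochondrial folate enzyme that is also a target of ATF4, at 114, 111 and 118 against 213, 217 and 205 TPM (1.04). MTHFD2 fell short of the 2-fold line when scaled by library size alone. DPYD, which degrades 5-FU, was too low to be tested.

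Genes of the cell cycle and of p53 gave few calls at both thresholds, which 5.23% of all genes passed as lower and 3.88% as higher. Of 42 genes of the G1/S phase and 40 of the G2/M phase 0 passed both thresholds, with medians of 0.12 and -0.18. At the adjusted p alone 8 of the G1/S genes were lower and 19 higher, and 22 of the G2/M genes lower and 1 higher. Of all 21814 genes 4012 were lower and 5186 higher at it, together 42.2%. In the irradiated libraries 2 of the G1/S genes were lower and 26 higher, and 31 of the G2/M genes lower and 1 higher. There, 3998 of all genes were lower and 5310 higher. Among 33 p53 targets 1 was lower (3.03%), PHLDA3 (-1.60), an inhibitor of AKT. Another was higher (3.03%), BTG2 (1.19), an antiproliferative gene, and the median of the list was 0.13.

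Intestinal differentiation genes were divided. Of 27 tested, 8 were lower and 3 higher (5.23% and 3.88% of all genes; median -0.74), and 3 fell and 4 rose in sensitive cells with 5-FU (1.37% and 2.66%). MUC5AC, a secreted mucin, was lower by 1.82 on the log2 scale after a rise of 1.37 in the sensitive cells. TFF1, a trefoil peptide, was lower (-2.04), as was SPINK1 (-3.35), a trypsin inhibitor. GUCY2C, the receptor of guanylin, was at 3 counts or fewer in each resistant 5-FU library, with a ratio of 6.89 (2.51 to 26.4). The other lower members were MUC13, CEACAM5, REG4 and ALPP, the last with close paralogues. VIL1, the microvillus protein villin, was higher (1.33) after a change of -1.44 in sensitive cells. SPINK4, of goblet cells, was higher by 2.23 and ATOH1, the transcription factor of the secretory lineage, was at 0 in the sensitive 5-FU libraries, at least 5.96-fold higher in resistant cells.

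Of the 24 tested members of the NF-kB list 4 chemokines were called higher in resistant cells and 1 cytokine lower, against 3.88% and 5.23% of all genes, and the median was -0.11. At the adjusted p alone 9 were higher and 7 lower. CXCL8, which attracts neutrophils, was at 8.50, 8.64 and 9.17 TPM in sensitive and 42.2, 37.8 and 43.6 TPM in resistant cells (2.36), with a gap wider than under uracil. CXCL1 was higher by 1.79, CXCL3 by 1.32 and CXCL2 by 1.31. IL32, a proinflammatory cytokine, was at 40.3, 43.1 and 42.7 against 5.16, 4.47 and 4.97 TPM (-3.07). In resistant cells 0 members of the list passed the adjusted p for a change with 5-FU. Without the resistant uracil library that stood apart, these 5 genes fell in resistant cells past it. The changes were -0.43 for CXCL8, -0.54 for CXCL1, -0.40 for CXCL3, -0.61 for CXCL2 and -0.53 for IL32.

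Genes of cholesterol and fatty acid synthesis gave 2 calls under the drug and a lower median under uracil. Of 34 genes 1 was lower and 1 higher, the latter the fatty acid desaturase FADS2 (1.40), with a median of 0.15; of all genes 5.23% and 3.88% were called so. Under uracil 4 were lower and 1 higher (2.01% and 3.69% of all genes) with a median of -0.49. The gap moved toward higher levels in resistant cells for 30 of the 34 at the adjusted p, against 13.7% of all genes. INSIG1, which holds back sterol synthesis when sterol is plentiful, fell in sensitive cells from 50, 49.2 and 56.4 to 19.2, 19.1 and 21.1 TPM and stood in resistant cells at 23.0, 20.9 and 20.9 TPM under uracil and 26.9, 24.9 and 25.8 TPM under 5-FU.

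The other lists had few calls, and their counts are to be read against the 5.23% of all genes called lower and 3.88% called higher. Of 25 WNT target and stem cell genes 3 were higher, EPHB2 (1.28), PROM1 (2.24) and APCDD1 (1.38). Of 33 genes of the epithelial-mesenchymal transition 4 were lower, among them LAMA3 (-2.56), a laminin chain, and 2 higher, among them SNAI1 (1.33), a transcription factor that represses E-cadherin. Of 35 interferon-induced genes 4 were lower and 3 higher, and of 29 NRF2 targets AKR1C3 was lower (-3.78) and SLC7A11 and PIR higher. Of 30 EGFR and MAPK genes 1 was lower, JUN (-1.16), and 2 higher, EREG (1.03), a ligand of EGFR, and PHLDA1 (1.39). Of 28 hypoxia genes 1 was higher, EGLN3, and of 37 tested histone genes 2 were lower and 2 higher.

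The irradiated libraries share no sample with the 5-FU libraries and give the gap under the drug again, with irradiation added. In them 9.38% of all genes were called, 1106 lower in resistant cells (5.07%) and 941 higher (4.31%). Of the 1140 genes lower under 5-FU 779 (68.3%) were again called lower, and of the 847 higher 682 (80.5%) again higher; these are 70.4% and 72.5% of the genes called in the irradiated libraries, and 0 genes were called the opposite way. Between the uracil libraries, with 5.7% of all genes called, 438 lower (2.01%) and 805 higher (3.69%), the shares were 29.9% and 51.2%. These are 77.9% and 53.9% of the genes called between the uracil libraries. Of the genes lower under 5-FU 4 were called the opposite way under uracil, and of the higher ones 1. The genes already apart with no called change of the gap were called again in 261 of 292 and 338 of 373 cases, and those apart by a response of the sensitive cells in 196 of 288 and 157 of 198. DDIT4 was higher by 3.84 in the irradiated resistant cells, RPL22L1 by 2.61, ASNS by 2.29 and CHAC1 by 1.79, while GPNMB was at -3.02 and VGLL1 at -1.87. Of the 30 named genes 3 were not called again: LINC02742 (-0.92, adjusted p = 0.0153), and MUC13 (-0.84) and RAP1GAP2 (-0.93), which passed the adjusted p but not the 2-fold line. UPK2 (-1.34) and KRT13 (-1.43) were called with a smaller difference than under 5-FU alone. The sensitive cells had moved as under 5-FU alone, with a median change from uracil of 0.67 over the 1140 lower genes and -0.47 over the 847 higher ones, against 0.02 and -0.05 in resistant cells.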

How the data were processed

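RNA of all samples was sequenced as directional paired poly(A) libraries. Per the labels and the study's methods, the authors trimmed reads with Trimmomatic 0.36, checked them with FastQC 0.11.8 and quantified Ensembl transcripts of GRCh38 with kallisto 0.44.0. The deposited tables hold estimated counts and TPM values; both are deposited per gene (59368 genes) for each library. In DLD-1 the totals were 38957142 to 218518344 estimated counts, and 60.9% of the gene values were whole, so counts were rounded before the fit. Shares of reads between near-identical copies are estimates.

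The 18 DLD-1 libraries in 6 groups were fitted together with edgeR 4.0.16 (quasi-likelihood test, TMM scaling, filterByExpr, 12 residual degrees of freedom; R 4.3.3, limma 3.58.1), and p-values were adjusted by Benjamini-Hochberg over 21814 genes. A call needed an adjusted p of 0.01 or less and a 2-fold change, the thresholds of the study, which used DESeq2 for its own fit. DESeq2 1.42.0 (Wald test) was an alternative, as were other thresholds, scaling by library size, no filter on low counts, a replicate block, thinning of the deepest library, fits on fewer groups and leaving out each library. TPM values served to show levels. Where a group was at 3 counts or fewer in each library, a ratio of summed counts scaled by library size is given with its exact 95% interval, or a lower bound against 3 counts per library where it was at 0. Both cover counting error only. Tables were made with Python 3.11.15, pandas 2.3.3, numpy 2.4.6, scipy 1.17.1 and matplotlib 3.10.9. On simulated data of 21312 genes for the comparison under 5-FU, the fit passed 97 of 100 genes changed 2-fold and 100 of 100 changed 4-fold at the adjusted p. At both thresholds it called 55 and 100. The changed genes were drawn from those averaging more than 100 counts a library, so recovery of genes with fewer counts was not tested.

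Named genes were, among symbols other than clone names with a mean of at least 1 TPM in a 5-FU group, the 6 largest fold changes each way, the 5 each way already apart by the smaller of both differences, the 6 each way with the largest interaction where sensitive cells responded, and up to 3 each where resistant cells responded; called members of gene lists could be added. Other members and ATF4, GPT2, NUPR1, TYMS, INSIG1 and the keratins short of the threshold were named after their values were seen. The values of some single genes that count in the lists are not reported here. The members and lists were chosen with earlier results of these data known. Gene positions are those of GENCODE 44 on GRCh38, promoter sequences those of RefSeq on GRCh38.p14. Between groups, libraries with the same replicate number did not deviate together (correlations of -0.048 to 0.039), so numbers were not taken as pairs.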

Additional observations from a re-analysis of the deposited data

Results flagged for a closer look

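The gap between resistant and sensitive cells under 5-FU differed from that under uracil, by the interaction term of edgeR's fit at an adjusted p of 0.01 or less, in 4978 genes. Among the named genes the interaction, which is the response of the resistant minus that of the sensitive cells on the log2 scale, was positive for DDIT4 (4.00), FGF20 (2.85), RPL22L1 (2.53), ASNS (2.25), CHAC1 (2.22), PIR (2.19) and PRF1 (1.83). It was negative for UPK2 (-4.79), VGLL1 (-4.62), KRT13 (-3.36), LINC02742 (-3.13), GPNMB (-2.97), CASQ1 (-2.90), CITED4 (-1.74), RPE65 (-1.59), TXNIP (-1.46), MUC13 (-1.26) and RAP1GAP2 (-0.39). The interaction was among the values that chose most of these genes.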

How the results depend on the processing

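Under 5-FU the difference of each of the 30 named genes kept its direction and its side of the thresholds in the 18 alternatives run for it; the interaction did not in CASQ1 and RPE65, with adjusted p up to 0.0126 and 0.0379, and CALB1 gained it (0.00897) without resistant uracil replicate 1. The counts depended on the thresholds. With a change of at least 4-fold, 374 genes were lower and 202 higher, 681 had an interaction of at least 2-fold, the classes held 233, 14, 135 and 194 genes (already apart with no called change of the gap and with a changed one, by the drug, neither), and 418 genes were called again in the irradiated libraries; the medians of the difference under uracil and of the resistant response over lower genes were 1.692 and 0.2198, and those of the difference under uracil and of the sensitive response over higher genes 2.017 and 0.7461. At the adjusted p alone the counts were 4012 lower, 5186 higher, 2451, 809, 3357 and 2581 in the classes and 7631 in the irradiated libraries, with medians of 0.199, 0.3097 and 0.04192 (lower genes: uracil, sensitive, resistant) and 0.1056 and 0.2955 (higher genes: uracil, sensitive). Scaling by library size alone gave 0.5698 and 0.7881 for lower and 1.249 and 0.514 for higher genes (uracil, sensitive). A minimum of 1 TPM, chosen after seeing the data, left 716 lower, 558 higher, 402 already apart with no called change of the gap and 339 in neither class. With 1 library left out, genes lower ranged from 1007 to 1187 and higher from 786 to 871, interactions from 4179 to 6032, and the classes from 617 to 654, 90 to 129, 451 to 557 and 577 to 787; the medians ranged over lower genes from 0.646 to 0.730, 0.684 to 0.753 and 0.148 to 0.234, over higher genes from 0.993 to 1.125, 0.564 to 0.623 and -0.169 to -0.0256, and the irradiated count from 1337 to 1431. With the replicate number as a block, 1115 genes were lower and 839 higher; the numbers do not pair the samples. DESeq2 gave 1120 and 815. Depth limits the genes at or below 3 counts a library, whose ratios have wide intervals, and the triplicates come from 1 resistant population, so the cause of differences between the lines was not tested.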

Other observations

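A small set of genes changed in the resistant cells with 5-FU, nearly all by less than 2-fold, and those named here were chosen after their values were seen. Of the 84 genes past the adjusted p in resistant cells (edgeR's quasi-likelihood test), 55 fell and 29 rose; 35 of them also passed it in sensitive cells in the opposite direction and 24 in the same one. A few chaperone genes, picked for it, rose in resistant and fell in sensitive cells: HSPA8, the constitutive Hsp70, changed by 0.35 and -0.35 (log2), HSPH1 by 0.26 and -0.25, DNAJB1 by 0.32 and -0.30, and HSPA1B, whose copy HSPA1A is nearly identical, by 0.60 and -0.64. In the irradiated libraries the change of HSPA8 in resistant cells was 0.23 and that of HSPH1 0.25, both past the adjusted p, while HSPA1B (0.20) and DNAJB1 (0.19) did not pass it. CHORDC1, HSPA4L and HSPA14, further chaperone genes that rose in resistant cells, did not pass the threshold in sensitive cells (-0.0023, -0.05 and -0.10).

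IDI1 and SQLE, enzymes of sterol synthesis picked in the same way, moved likewise, IDI1 by 0.43 in resistant and -0.26 in sensitive cells and SQLE by 0.26 and -0.98. GDF15, a stress-induced cytokine, fell by 0.44 in resistant cells, from a mean of 357 to 265 TPM, and rose by 0.19 in sensitive cells. Each of these genes stayed past the adjusted p in resistant cells without the resistant uracil library that stood apart.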
